A study of Mus musculus with 6 samples.

Results

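Genes of DNA damage repair were compared between D-galactose (D-gal) treated and control fibroblasts in RNA-seq libraries. The 47 genes are a list of repair genes matched by gene symbol in a table of 34745 genes, which uses no measured value as a criterion. All 47 were found in the table and all had enough reads to be tested. They cover homologous recombination (10 genes), the Fanconi anaemia pathway (9), mismatch repair (4), base excision repair (5), nucleotide excision repair (7), non-homologous end joining (5) and damage signalling with the MRN complex (7).

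Cells mend broken DNA by copying an intact sister strand (homologous recombination) or by ligating the ends directly (end joining), and the kinases ATM and ATR report the damage to the cell cycle. Damaged single bases are cut out by base excision repair, bulky lesions by nucleotide excision repair, mispaired bases by mismatch repair and crosslinked strands by the Fanconi pathway. Many genes of recombination and of the Fanconi pathway are transcribed mainly while a cell copies its DNA, whereas end joining and nucleotide excision work throughout the cell cycle. D-gal is a sugar given to cells and animals to bring on features of ageing.

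The cells were NOR-10, an established line of mouse skeletal muscle fibroblasts, and no genetic change was made. The D-gal group (3 libraries) was kept with D-gal at 20 mg/mL over 3 days, while the controls (3 libraries) received PBS in the same amount. The labels do not say whether libraries of a group came from separate cultures, so p-values measure only the spread between these libraries, which may be technical. All cells belong to a single line in culture, without the other cells of muscle. Total counts were 16876087 to 20830349 in control and 13759108 to 15157064 in D-gal libraries.

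Fibroblast genes were abundant in every library, with a sum over 9 markers of 13590 to 13920 CPM (counts scaled to the library total) in control and 7244 to 7571 in D-gal libraries, although Lum was nearly absent. The myogenic markers Pax7, Myf5 and Myod1 had 0 counts throughout, and the 6 myogenic markers together reached 3.01 to 3.26 CPM in control and 1.87 to 2.02 in D-gal libraries. The 4 endothelial markers summed to 3.01 to 3.16 and 2.01 to 2.54 CPM in the 2 groups, and the 4 epithelial markers, with Epcam at 0, to 7.10 to 8.67 and 1.69 to 2.66. Macrophage markers (4 genes) lay between 4.03 and 16.8 CPM in control and between 4.28 and 5.40 in D-gal libraries, the highest value being that of control replicate 1. The part of these differences in the results was not tested, and the counts of repair genes are also given without that library.

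The repair genes did not move in one direction. Of the 47 tested, 14 were lower and 5 were higher in the D-gal group at an adjusted p-value under 0.05 (quasi-likelihood test of edgeR, Benjamini-Hochberg adjusted over all genes), and 28 did not pass. Among all 13407 genes tested, 17.8% were lower and 16.9% higher. The share of repair genes that fell (29.8%) thus exceeded that of all genes, and the share that rose (5 of 47) was below that of all genes. Neither difference was tested. DESeq2 called 12 lower and 4 higher, and limma on FPKM values 11 lower and 5 higher. The lower count was 9 without control replicate 1 and also 9 without D-gal replicate 2. In 19 repair genes all D-gal libraries were below the lowest control library, and in 6 they were all above the highest. All genes tested gave 25.0% and 24.1%, so the 19 of 47 were a larger share and the 6 a smaller one.

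The changes were small. The median log2 fold change of the 47 genes was -0.10, beside 0.0036 for all genes tested, and it was -0.16 without control replicate 1. Single values ran from -0.98 for Xrcc3 to 0.52 for Ercc5. None of the 47 reached the size used for differential expression, a log2 fold change of 1 or more upwards or downwards (0 by edgeR, DESeq2 and limma, and 0 at an unadjusted p under 0.05), while 1.83% of all genes were lower and 2.37% higher by that measure. Xrcc3 passed it without control replicate 1 (-1.02), without control replicate 2 (-1.06) and without D-gal replicate 1 (-1.03). The median coefficient of variation between replicates was 6.52% in control and 7.12% in D-gal libraries for repair genes, near the 6.09% and 6.65% of all genes tested.

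**Figure D1:**
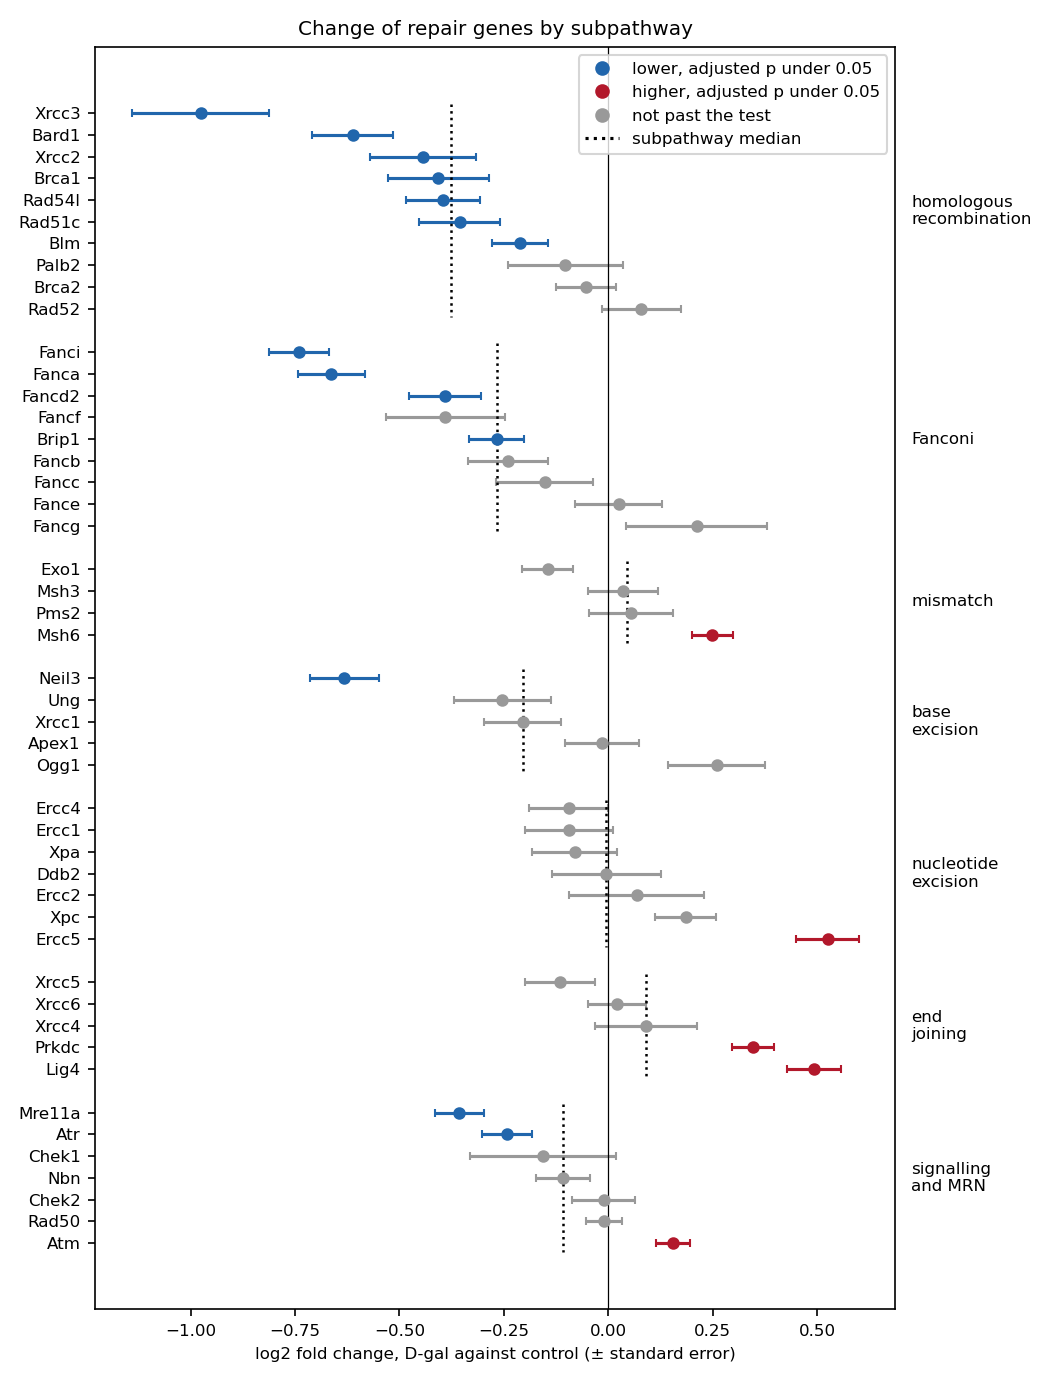
Log2 fold change of each repair gene in D-gal against control (x axis) by subpathway (rows), with bars of 1 standard error and a dotted line at the subpathway's median. The recombination and Fanconi genes lie mostly left of 0, with medians of -0.38 and -0.27, and the end joining median is 0.09.

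Of the 14 lower genes, 11 belonged to homologous recombination or the Fanconi pathway, of whose 19 genes 0 were higher. Of the 28 genes of the other 5 subpathways, 3 were lower and 5 higher, the 5 being near the 16.9% share of all genes. The median log2 fold change was -0.36 in the former and -0.01 in the latter, and the D-gal libraries lay entirely below the control libraries in 13 of 19 and in 6 of 28. They lay entirely above in 0 of 19 and in 6 of 28. All genes tested gave 25.0% below and 24.1% above, which the 6 of 28 did not exceed in either direction. These counts describe the lists, and the difference between them was not tested. In bulk libraries, fewer cells in a given cell cycle phase and less RNA in each such cell cannot be told apart.

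Promoter sequences of these genes were examined for the E2F core, the site of factors that drive genes at the start of DNA replication. RefSeq promoters (GRCm38.p6, 250 bases before to 50 after the start of transcription) were matched by symbol for 39 of the 47 genes, and 8 (20.5%) held the core, beside 2.6% of the 27025 genes with a promoter in the table. Those genes were not chosen to match the repair genes in base composition or expression, and the difference was not tested. The letters searched were TTTCCCGC, TTTGGCGC, TTTCGCGC and TTTGCCGC on either strand. Of the 12 lower genes with a promoter 2 held the core (Bard1 and Rad51c), of the 4 higher genes 1 (Msh6), and of the 23 that did not pass 5 (Brca2, Chek2, Fancg, Msh3 and Xrcc6). The core was thus present among genes that fell, rose and did neither, and 4 of these promoters are shown for that reason, those of Bard1 and Rad51c (lower), Brca2 (not passed) and Msh6 (higher), with the core in capitals. The windows are chr1:71102923-71103222 on the minus strand for Bard1 (core 209 bases before the start), chr11:87404905-87405204 on the minus strand for Rad51c (1 of 2 windows that hold the core, 5 bases before the start), chr5:150522371-150522670 on the plus strand for Brca2 (168 bases before the start) and chr17:87974800-87975099 on the plus strand for Msh6 (15 bases after the start).
Bard1: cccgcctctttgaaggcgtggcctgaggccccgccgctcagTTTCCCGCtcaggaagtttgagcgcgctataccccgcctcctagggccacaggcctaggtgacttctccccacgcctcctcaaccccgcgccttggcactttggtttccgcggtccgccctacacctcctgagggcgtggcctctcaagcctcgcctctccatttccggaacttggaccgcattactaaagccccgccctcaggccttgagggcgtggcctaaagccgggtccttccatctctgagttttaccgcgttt
Rad51c: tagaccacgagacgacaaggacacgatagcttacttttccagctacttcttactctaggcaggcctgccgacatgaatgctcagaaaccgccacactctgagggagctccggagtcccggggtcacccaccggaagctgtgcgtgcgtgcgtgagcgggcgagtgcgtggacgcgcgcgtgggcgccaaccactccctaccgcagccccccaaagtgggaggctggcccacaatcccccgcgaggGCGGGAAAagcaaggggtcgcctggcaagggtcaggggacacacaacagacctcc
Brca2: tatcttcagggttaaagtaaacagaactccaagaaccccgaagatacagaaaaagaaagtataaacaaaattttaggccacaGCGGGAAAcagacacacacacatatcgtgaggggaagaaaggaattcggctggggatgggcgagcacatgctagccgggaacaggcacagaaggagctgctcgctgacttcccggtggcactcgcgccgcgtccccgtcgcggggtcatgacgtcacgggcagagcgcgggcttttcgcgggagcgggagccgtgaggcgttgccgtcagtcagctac
Msh6: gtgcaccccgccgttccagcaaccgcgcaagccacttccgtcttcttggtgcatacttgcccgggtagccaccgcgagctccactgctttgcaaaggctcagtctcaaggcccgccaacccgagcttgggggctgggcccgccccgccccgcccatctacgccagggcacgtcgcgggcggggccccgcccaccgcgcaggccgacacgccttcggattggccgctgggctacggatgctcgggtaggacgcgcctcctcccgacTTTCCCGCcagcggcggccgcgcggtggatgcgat

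A pair of other motifs of genes tied to the cell cycle was counted in the same windows, on both strands. The CHR element (TTTGAA), found in genes of late G2 and mitosis, was present in 2 of 39 repair genes (5.13%), beside 20.2% of all genes. The CCAAT box (CCAAT) was present in 25 of 39 (64.1%), beside 41.1% of all genes. None of the motifs contains another. Here too the genes compared were not matched in base composition or expression. A match is a description of these letters only.

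In homologous recombination, 7 of 10 genes were lower and 0 were higher (0 higher also at an unadjusted p under 0.05 and by DESeq2 and limma). DESeq2 and limma each called 5 lower. The summed normalised count of the 10 genes was 4213, 4611 and 4266 in control and 3624, 3422 and 3561 in D-gal libraries, so that no D-gal library reached a control library. The sum fell by 19.0%. Fewer of these genes passed when 1 library was left out, with 4 lower without control replicate 1, control replicate 2 or D-gal replicate 3, and 3 without D-gal replicate 2.

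Bard1 (ENSMUSG00000026196, chromosome 1, 71027498 to 71103146 on GRCm38, as for all positions below) encodes the partner that forms a ubiquitin ligase with BRCA1. Its normalised count was 276, 300 and 315 in control and 209, 196 and 178 in D-gal libraries, and the groups did not overlap. The means were 297 ± 19.6 and 194 ± 15.2 (SD, n = 3), which gave a log2 fold change of -0.61 (standard error, SE, 0.10, adjusted p = 0.00201). Xrcc3 (ENSMUSG00000021287, chromosome 12, 111803192 to 111813873), which acts in homologous recombination, was the repair gene that fell furthest. It had 98.47, 92.21 and 124.2 normalised counts in control and 57.23, 49.14 and 53.02 in D-gal libraries. Every D-gal value was below the lowest control value. The means of 105 ± 17.0 and 53.1 ± 4.05 (SD, n = 3) gave a log2 fold change of -0.98 (SE 0.16, adjusted p = 0.00277). Rad54l encodes a DNA translocase that works during strand exchange. Its control libraries were tightly grouped at 472, 477 and 485 normalised counts, and its D-gal libraries spread over 403, 365 and 322. The log2 fold change was -0.40 (SE 0.09, adjusted p = 0.00993), but Rad54l shares 1184 exonic bases with Lrrc41 on the other strand, which rose (log2 fold change 0.32, adjusted p = 0.00222), and without strand their reads cannot be told apart.

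The other 4 lower recombination genes were less firm. Brca1, which directs broken ends towards recombination, fell from 1350 ± 215 to 1020 ± 121 normalised counts (SD, n = 3), and its log2 fold change was -0.41 (adjusted p = 0.0336). Its control libraries had 1241, 1598 and 1213 normalised counts and its D-gal libraries 939, 961 and 1159, so the highest D-gal library was close to the lowest control library. Brca1 did not pass without control replicate 2 (log2 fold change -0.27), without D-gal replicate 1 or without D-gal replicate 2, with a largest adjusted p of 0.103 over all alternatives. Its values are given in each library because of this spread, a choice made after they were seen. Xrcc2 and Rad51c also act in strand exchange, and their log2 fold changes were -0.44 (adjusted p = 0.0289) and -0.36 (adjusted p = 0.0245). Neither passed without control replicate 1, control replicate 2, D-gal replicate 2 or D-gal replicate 3, and the largest adjusted p over the alternatives was 0.0873 for Xrcc2 and 0.135 for Rad51c. Blm encodes a helicase that dissolves joined DNA molecules. Its log2 fold change of -0.21 had an adjusted p of 0.0402, and it passed only without control replicate 2 among the 6 fits with a library left out (largest adjusted p over the alternatives 0.136).

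The remaining 3 recombination genes did not pass. Palb2, which bridges BRCA1 and BRCA2, had a log2 fold change of -0.10, and Brca2, a mediator of recombination, one of -0.05 (adjusted p = 0.608 for both). Rad52, an annealing protein, had a log2 fold change of 0.08 (adjusted p = 0.562). Their D-gal and control libraries overlapped, and with 1 library left out Palb2 ranged from -0.21 to -0.0001. Brca1 and Brca2 thus gave different calls, although the difference between the 2 genes was not tested.

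In the Fanconi pathway, 4 of 9 genes were lower and 0 higher (0 higher also at an unadjusted p under 0.05 and by DESeq2 and limma). The 9 genes summed to 3584, 3483 and 3539 normalised counts in control and to 2761, 2785 and 2703 in D-gal libraries. The libraries of a group were closely alike and the groups lay well apart. The sum fell by 22.2%.

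Fanci (ENSMUSG00000039187, chromosome 7, 79391929 to 79450264) and Fancd2 encode the pair of proteins that is clamped onto DNA at a crosslink. Fanci had 451, 449 and 462 normalised counts in control and 257, 271 and 288 in D-gal libraries. Its expression fell by 40.1%, from 454 ± 7.29 to 272 ± 15.5 (SD, n = 3), a log2 fold change of -0.74 (SE 0.07, adjusted p = 0.000184). No other repair gene of the 47 had a smaller p-value. Fancd2 had 698, 707 and 650 normalised counts in control and 588, 507 and 472 in D-gal libraries. It fell less than its partner, with a log2 fold change of -0.39 (SE 0.09, adjusted p = 0.00983). Fanca (chromosome 8, 123268300 to 123318576) belongs to the core complex that activates this pair. The gene had 729, 659 and 639 normalised counts in control and 398, 461 and 422 in D-gal libraries. Its fall of 36.8%, from 676 ± 47.3 to 427 ± 31.5 (SD, n = 3), was a log2 fold change of -0.66 (SE 0.08, adjusted p = 0.000521).

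Reads of Fanci and Fanca can include reads of genes on the other strand. Fanci overlaps 921 exonic bases of Polg (log2 fold change -0.02, adjusted p = 0.9) and Fanca 920 of Zfp276 (-0.07, adjusted p = 0.823). Neither of these neighbours passed the test. Fanci, Fanca and Rad54l also share 12.4%, 11.3% and 14.3% of their sampled sequence words of 31 bases with other genes. Brip1, a helicase that binds BRCA1, was the remaining lower gene, with a log2 fold change of -0.27 (adjusted p = 0.0165), and did not pass without control replicate 1 (largest adjusted p over the alternatives 0.0553).

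The other 5 Fanconi genes belong to the core complex, and they did not pass. Fancf had a log2 fold change of -0.39 (adjusted p = 0.0682) and Fancb one of -0.24 (adjusted p = 0.0866), and in both all D-gal libraries lay below the control libraries. Without D-gal replicate 3, Fancb passed (-0.32, adjusted p = 0.0452). Fancc (-0.15, adjusted p = 0.353) and Fance (0.02, adjusted p = 0.883) overlapped between groups. Fancc and Fancf share 16.8% and 14.4% of their sampled words with other genes. Fancg had a log2 fold change of 0.21 (adjusted p = 0.374) and the widest spread of any repair gene among D-gal libraries, with a coefficient of variation of 22.3%. Without D-gal replicate 1, Fancg passed as higher (0.38, adjusted p = 0.048), and with other libraries left out its log2 fold change went down to 0.09.

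**Figure D2:**
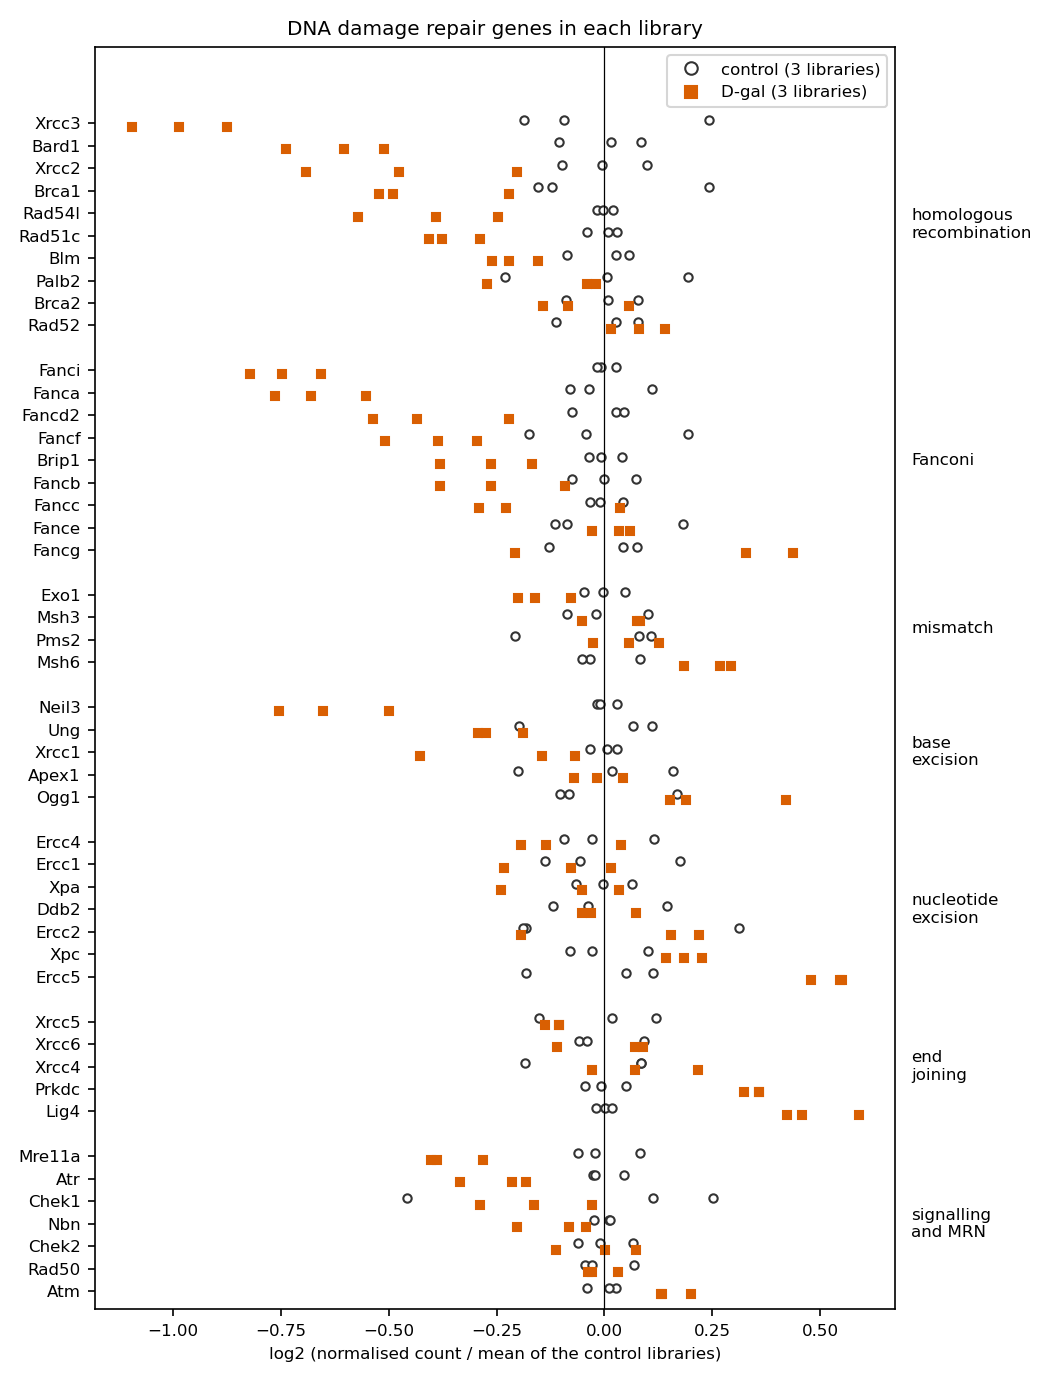
Normalised count of each repair gene in each library, as log2 of its ratio to the mean of the 3 control libraries (x axis), with open circles for control and orange squares for D-gal libraries. For Fanci, Fanca, Neil3, Bard1 and Xrcc3 all squares lie left of all circles, and for Ercc5, Lig4, Prkdc and Msh6 all squares lie right of them.

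In mismatch repair, 1 of 4 genes was higher and 0 lower (0 lower by DESeq2 and limma as well, 1 at an unadjusted p under 0.05). The share of all genes tested that were higher was 16.9%. Msh6 (ENSMUSG00000005370, chromosome 17, 87975050 to 87990883) encodes a subunit of the complex that recognises mispaired bases. It had 2584, 2553 and 2799 normalised counts in control and 3184, 3240 and 3006 in D-gal libraries. The groups did not overlap, and the rise from 2645 ± 134 to 3143 ± 122 (SD, n = 3) was a log2 fold change of 0.25 (SE 0.05, adjusted p = 0.0052). Msh6 shares 11.8% of its sampled words with other genes. Exo1, the nuclease that removes the strand with the error, had 558, 574 and 596 normalised counts in control and 515, 501 and 546 in D-gal libraries. These groups did not overlap either, but the log2 fold change of -0.15 did not pass (adjusted p = 0.105). Msh3, which recognises larger loops (0.03, adjusted p = 0.786), and Pms2, a nicking subunit (0.05, adjusted p = 0.718), overlapped between groups.

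In base excision repair, 1 of 5 genes was lower and 0 higher (0 higher also at an unadjusted p under 0.05 and by DESeq2 and limma). Neil3 (ENSMUSG00000039396, chromosome 8, 53586867 to 53639065) encodes a glycosylase for oxidised bases that also opens crosslinks. It had 457, 442 and 444 normalised counts in control and 285, 265 and 317 in D-gal libraries. Its fall of 35.5%, from 448 ± 7.77 to 289 ± 26.0 (SD, n = 3), was a log2 fold change of -0.63 (SE 0.08, adjusted p = 0.000768), and no exon of another gene overlaps it. Xrcc1, the scaffold of single-strand break repair, had 618, 608 and 592 normalised counts in control and 548, 578 and 451 in D-gal libraries. All D-gal values were below the control values, with D-gal replicate 3 well below the others, and the log2 fold change of -0.20 did not pass (adjusted p = 0.123). Ung, which removes uracil (-0.25, adjusted p = 0.131), and Ogg1, which removes oxidised guanine (0.26, adjusted p = 0.124), lay on opposite sides of 0 and overlapped between groups. Ogg1 shares 10.2% of its sampled words with other genes. Apex1, which cuts the strand at an emptied site, stayed near 0 (-0.01, adjusted p = 0.919), but shares 56.2% of its sampled words with other genes and is uncertain. Of the 3 glycosylases, Neil3 was thus the one that passed.

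In nucleotide excision repair, 1 of 7 genes was higher, a share not above the 16.9% of all genes tested, and 0 were lower (0 lower also at an unadjusted p under 0.05 and by DESeq2 and limma). Ercc5 (ENSMUSG00000026048, chromosome 1, 44147744 to 44181260), the nuclease XPG that cuts on one side of the lesion, was the repair gene that rose most. It had 1121, 1073 and 913 normalised counts in control and 1443, 1513 and 1517 in D-gal libraries. The rise of 43.9%, from 1036 ± 109 to 1491 ± 41.6 (SD, n = 3), was a log2 fold change of 0.52 (SE 0.08, adjusted p = 0.00123). Xpc, which finds distorted DNA, had 409, 361 and 374 normalised counts in control and 433, 446 and 421 in D-gal libraries. Its D-gal values were all above the control values, but the log2 fold change of 0.19 did not pass (adjusted p = 0.0867). Ercc4, a subunit of the nuclease that cuts on the opposite side from XPG, had 342, 309 and 296 normalised counts in control and 276, 287 and 324 in D-gal libraries, which overlapped (-0.10, adjusted p = 0.483). Its partner Ercc1 had nearly the same log2 fold change (-0.09, adjusted p = 0.533). Xpa, which checks the lesion (-0.08, adjusted p = 0.583), Ercc2, a helicase of TFIIH (0.07, adjusted p = 0.782), and Ddb2, which detects ultraviolet lesions (-0.0045, adjusted p = 0.984), also overlapped. Ercc2 and Ddb2 share 32.2% and 18.75% of their sampled words with other genes. Genes on the other strand overlap 1769 and 652 of their exonic bases, so both values are uncertain. The subpathway's median was -0.0045, and 2 genes, Ercc5 and Xpc, were higher at an unadjusted p under 0.05.

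In end joining, 2 of 5 genes were higher and 0 lower (0 lower also at an unadjusted p under 0.05 and by DESeq2 and limma). Of all genes tested 16.9% were higher, and the difference was not tested. Lig4 (ENSMUSG00000049717, chromosome 8, 9970020 to 9977686), the ligase that seals the ends, had 436, 442 and 447 normalised counts in control and 593, 607 and 665 in D-gal libraries. The groups lay far apart relative to their spread, at 442 ± 5.84 and 622 ± 38.4 (SD, n = 3), with a log2 fold change of 0.49 (SE 0.07, adjusted p = 0.000838). Prkdc (ENSMUSG00000022672, chromosome 16, 15637866 to 15842235) encodes the kinase that is recruited to the ends. Its normalised count was 729, 683 and 701 in control and 882, 903 and 903 in D-gal libraries. This was a rise of 27.2% without overlap (log2 fold change 0.35, SE 0.05, adjusted p = 0.00131). Xrcc6 and Xrcc5 encode the Ku subunits that bind the ends before Prkdc, and neither passed (0.02, adjusted p = 0.844, and -0.11, adjusted p = 0.332). Xrcc4, the partner of the ligase, had a log2 fold change of 0.09 (adjusted p = 0.61).

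Among the damage signalling and MRN genes, 2 of 7 were lower and 1 higher, beside 17.8% and 16.9% of all genes tested. Mre11a (ENSMUSG00000031928, chromosome 9, 14784654 to 14837123), the nuclease of the MRN complex that trims broken ends, had 1034, 1142 and 1063 normalised counts in control and 888, 825 and 817 in D-gal libraries. The groups did not overlap, and the log2 fold change was -0.36 (SE 0.06, adjusted p = 0.00252). The other subunits of the complex, Rad50 (-0.01, adjusted p = 0.878) and Nbn (-0.11, adjusted p = 0.232), did not pass. Atr, the kinase that responds to stalled replication, had 778, 740 and 742 normalised counts in control and 650, 597 and 664 in D-gal libraries. It fell by 15.5% (log2 fold change -0.24, SE 0.06, adjusted p = 0.0162), and 1188 of its exonic bases overlap scarce transcripts on the other strand. Atm, the kinase that responds to double-strand breaks, had 1494, 1426 and 1477 normalised counts in control and 1684, 1607 and 1605 in D-gal libraries. It rose by 11.4% (log2 fold change 0.16, SE 0.04, adjusted p = 0.0202). The kinases thus changed in opposite directions, each without overlap of the groups. Atr did not pass without control replicate 1, without D-gal replicate 2 or by limma (largest adjusted p over the alternatives 0.119). This left 1 lower gene in the group each time. Atm did not pass without control replicate 2, without D-gal replicate 1 or by DESeq2 (largest adjusted p 0.069), and DESeq2 called 0 higher genes in this group. The checkpoint kinases that act below them, Chek1 (-0.16, adjusted p = 0.53) and Chek2 (-0.01, adjusted p = 0.927), did not pass. Chek1 had the widest spread of any repair gene among control libraries, with 238, 389 and 354 normalised counts, values given because of that spread. Its log2 fold change was -0.34 without control replicate 1 and -0.0074 without control replicate 2.

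Stability was compared over 15 alternative fits. Of the 14 lower genes, 8 passed in the same direction in all 15 fits, namely Bard1, Rad54l, Xrcc3, Fanca, Fancd2, Fanci, Neil3 and Mre11a. Of the 5 higher genes, 4 did so, namely Msh6, Ercc5, Prkdc and Lig4. The 24 repair genes with no exon shared with another gene and at most 10% of shared words, an alternative chosen after seeing the data, held 7 lower and 4 higher genes.

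Levels were compared per length, as RPKM (reads scaled to exon length and library total). The most abundant repair genes in the control group were Apex1 (41.4), Msh6 (36.3), Rad50 (21.1), Xrcc6 (13.3) and Nbn (12.6), and the least abundant were Palb2 (1.31) and Fancc (1.12). The level of Apex1 is uncertain, since 877 of its exonic bases overlap Pip4p1 on the other strand. Of the 5 most abundant genes, Msh6 was the one that passed the test of change. The lower genes lay between 1.90 for Atr and 10.9 for Mre11a. Recombination genes were mostly low, with Brca1 (9.43) above the other 9.

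**Figure D3:**
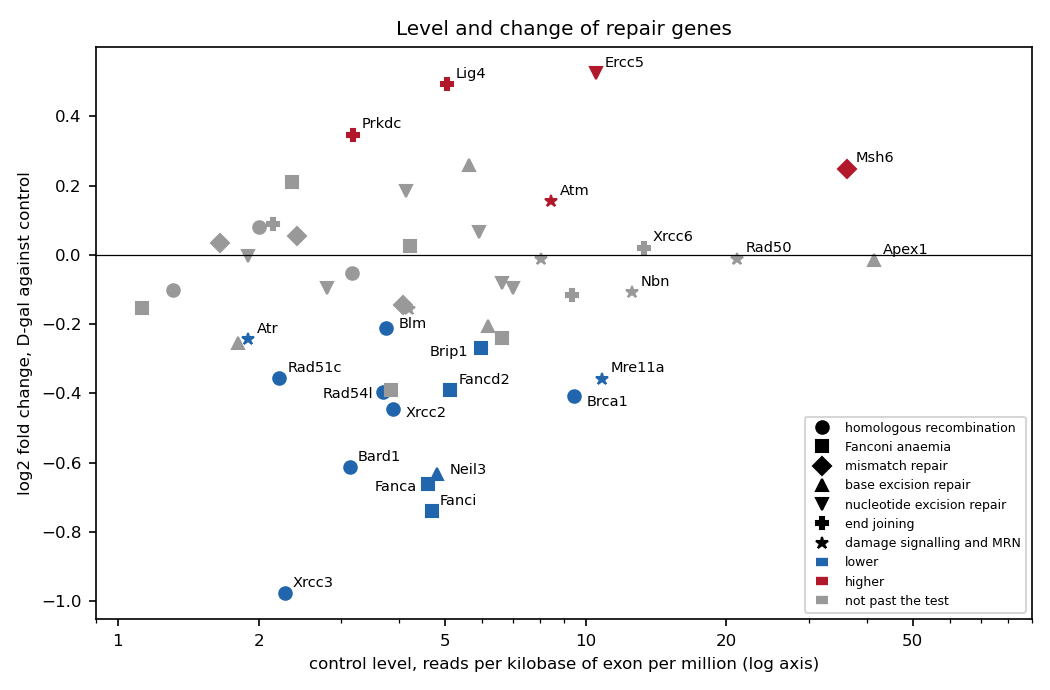
Log2 fold change in D-gal against control (y axis) and level in the control group in RPKM (x axis, log scale) of the 47 repair genes, by subpathway (symbol) and call (colour). The genes that fell lie at 1.90 to 10.9 RPKM, and Msh6 combines a level of 36.3 RPKM with a rise.

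Related genes were compared in pairs through the log2 ratio of their normalised counts in each library. Not every pair is made of partners in one complex or step, since Atr and Atm, for example, respond to different damage. Of 12 pairs, 5 had ratios that did not overlap between groups, a count given as a description, since the share among other gene pairs was not computed. All 5 had p = 0.1 in a two-sided exact permutation test, the smallest p that 3 against 3 libraries allow, and an adjusted p of 0.24 over the 12 pairs, so the design could not reach the threshold for any pair. The ratio of Mre11a to Rad50 was -0.95, -0.69 and -0.81 in control and -1.13, -1.18 and -1.18 in D-gal libraries. That of Atr to Atm was -0.94, -0.95 and -0.99 and then -1.37, -1.43 and -1.27. In both pairs the first gene was the scarcer one in counts, and more so in the D-gal group. The difference of the mean ratio was -0.35 for Mre11a to Rad50, -0.40 for Atr to Atm, -0.40 for Xrcc4 to Lig4, 0.34 for Fancd2 to Fanci and 0.51 for Xrcc2 to Xrcc3. The ratios of Brca1 to Bard1 (difference 0.21, p = 0.4 in the exact permutation test) and of Ercc4 to Ercc1 (-0.0024, p = 0.9 in the same test) overlapped between groups.

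**Figure D4:**
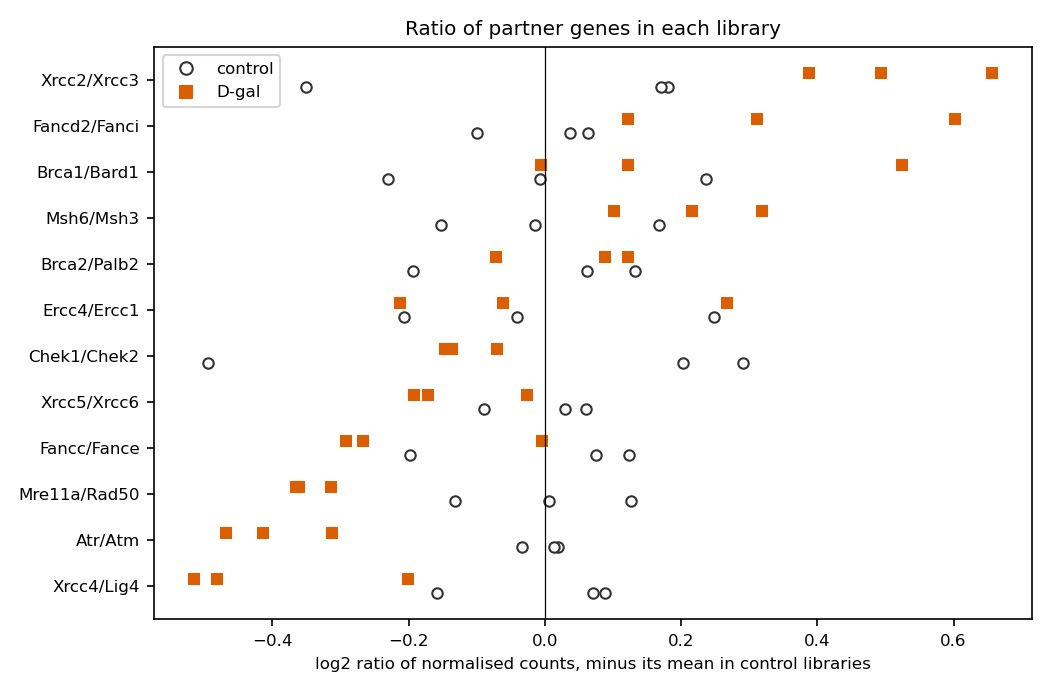
Log2 ratio of normalised counts of 12 pairs of related genes (rows) in each library, minus the mean of the 3 control libraries (x axis). Open circles are control and orange squares D-gal libraries. Squares and circles are apart for Xrcc2/Xrcc3, Fancd2/Fanci, Mre11a/Rad50, Atr/Atm and Xrcc4/Lig4.

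The repair genes were also divided by the cell cycle. For 16 of the 47, transcripts were taken from general knowledge to rise in S and G2 phase, with earlier results of these data known. They were Brca1, Brca2, Bard1, Rad54l, Xrcc2, Blm, Brip1, Fanca, Fancb, Fancd2, Fanci, Msh6, Exo1, Ung, Neil3 and Chek1. Of these, 10 were lower and 1 higher, with a median log2 fold change of -0.33. With 1 library left out, 7 to 9 were lower. Of the other 31 genes, 4 were lower (Xrcc3, Rad51c, Mre11a and Atr) and 4 higher (Ercc5, Lig4, Prkdc and Atm), with a median of -0.01. All genes tested gave 17.8% lower and 16.9% higher. The 10 of 16 lower (62.5%) were a larger share. The 4 of 31 in either direction (12.9%) were a smaller one, as was the 1 of 16 higher. These differences were not tested. Without control replicate 1 or without D-gal replicate 2, the lower count of these 31 was 2, and without control replicate 1 their median was -0.03. The exception in the former set was Msh6, which rose, and Xrcc3, the gene that fell furthest, was in the latter.

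Cell cycle genes outside the repair list moved as follows in the same libraries. Of 25 DNA replication genes 20 were lower and 0 higher (median log2 fold change -0.38), and of 24 mitosis genes 24 were lower and 0 higher (median -0.58), with 0 higher in either list also at an unadjusted p under 0.05 and by DESeq2 and limma. Mki67, a marker of dividing cells, had 10980, 11060 and 10890 normalised counts in control and 7467, 6900 and 7004 in D-gal libraries (log2 fold change -0.62, adjusted p = 1.51e-05). The median of the 16 repair genes of S and G2 phase was closer to that of the DNA replication genes than to that of the mitosis genes. The part of cell division in the fall of repair genes was not tested.

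Genes induced by p53, the factor that DNA damage activates, did not share 1 direction. Of 22 such genes, 8 were higher and 3 lower, with a median log2 fold change of 0.07. The 8 of 22 were a larger share than the 16.9% of all genes tested that were higher. The share that was lower (13.6%) was below the 17.8% of all genes. These differences were not tested. The 1 differentially expressed gene was Sesn1, which rose (log2 fold change 1.12, adjusted p = 0.000126). Cdkn1a, the p53 target that halts the cell cycle, had 5043, 4808 and 4780 normalised counts in control and 5045, 5044 and 5016 in D-gal libraries. The groups overlapped and the log2 fold change was 0.05 (SE 0.03, adjusted p = 0.315).

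**Figure D5:**
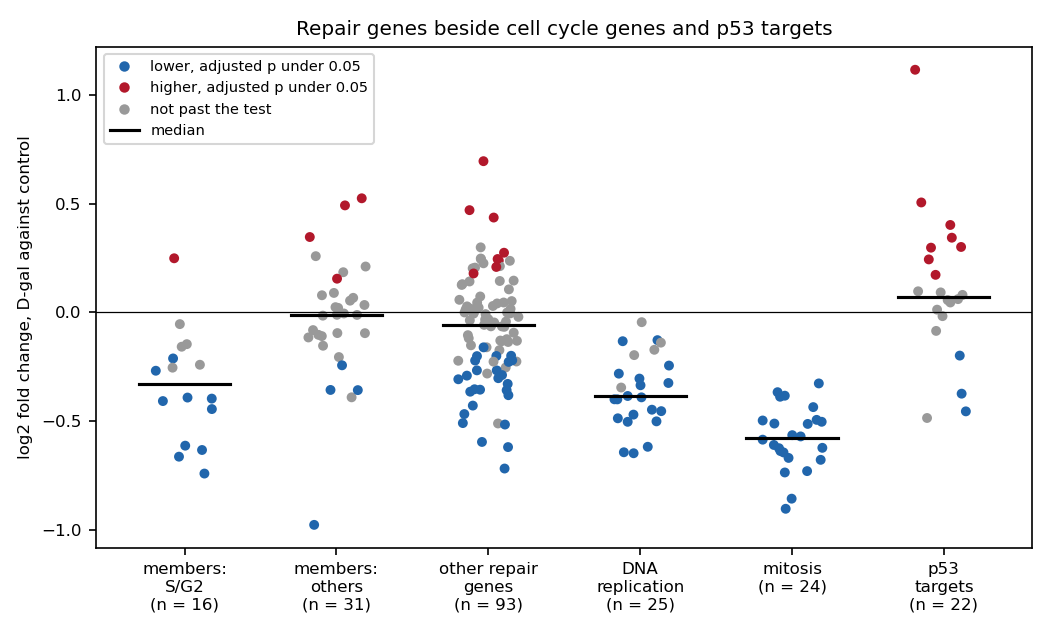
Log2 fold change in D-gal against control (y axis) of each gene in 6 lists (x axis), with 1 point per gene and a line at the median. The 16 repair genes of S and G2 phase have a median of -0.33, the other 31 one of -0.01, DNA replication -0.38, mitosis -0.58 and p53 targets 0.07.

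A wider list of 94 other genes of the same subpathways, of which 93 were tested, held 26 lower and 8 higher genes, with a median log2 fold change of -0.06. Without control replicate 2 the lower count was 17. In recombination 8 of 19 were lower and 1 higher, as in Gen1, a resolvase of joined molecules (-0.51, adjusted p = 0.00241), and Swi5, which helps strand exchange (-0.20, adjusted p = 0.00304). In the Fanconi pathway 3 of 12 were lower, among them Usp1, which unloads the Fanci and Fancd2 pair (-0.22, adjusted p = 0.00465), and 2 higher, among them Rev1, a translesion polymerase (0.24, adjusted p = 0.00466). Recombination thus leaned downwards in both lists, with 42.1% lower in the wider one. In the wider Fanconi list 25.0% were lower, beside 17.8% of all genes tested. Its 2 higher genes of 12 were near the 16.9% of all genes, and none of these differences was tested.

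The wider list differed from the 47 genes in mismatch repair, where 2 of 5 genes were lower and 0 higher (0 higher also at an unadjusted p under 0.05 and by DESeq2 and limma). These were Lig1, the ligase of replication (-0.72, adjusted p = 9.9e-05), and Pold1, the catalytic subunit of polymerase delta (-0.43, adjusted p = 0.000806), which act in DNA replication as well. In base excision repair 5 of 16 were lower and 0 higher (2 higher at an unadjusted p under 0.05, 0 by DESeq2 and 1 by limma), with Polb, the polymerase that fills the gap (-0.62, adjusted p = 0.00351), and Parp2, a sensor of nicks (-0.38, adjusted p = 0.00468). In nucleotide excision repair 3 of 17 were higher and 0 lower (0 lower also at an unadjusted p under 0.05 and by DESeq2 and limma), with Cdk7, the kinase of TFIIH (0.18, adjusted p = 0.00486), and Ercc6, which serves transcribed genes (0.25, adjusted p = 0.00687). The 3 higher of 17 were near the 16.9% of all genes tested that were higher. Usp1 and Rev1 share 31.2% and 24.4% of their sampled words with other genes, and exons of Swi5, Rev1, Lig1 and Polb overlap genes on the other strand, so their values are uncertain.

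In the wider end joining list 1 of 5 genes was higher, Dclre1c, the nuclease Artemis that Prkdc activates (0.70, adjusted p = 0.00266), and 1 lower, Polm, a gap filling polymerase (-0.30, adjusted p = 0.0176). Dclre1c had 171, 184 and 140 normalised counts in control and 262, 283 and 259 in D-gal libraries, without overlap of the groups, but its exons overlap Suv39h2 on the other strand. The 1 of 5 in each direction was near the 16.9% higher and 17.8% lower of all genes tested. Lig4, Prkdc and Dclre1c were thus the end joining genes that rose among the 10 tested, while the Ku genes and Xrcc4 did not pass. Whether end joining genes rose more often than all genes was not tested. In damage signalling 7 of 19 were lower and 1 higher, and the smallest p-values were those of Topbp1 (-0.29, adjusted p = 0.000348) and Clspn (-0.36, adjusted p = 0.000655), which activate the ATR pathway. Atr, Topbp1 and Clspn fell, but Topbp1 and Clspn were named for their p-values. Also lower were Rad9a (-0.35, adjusted p = 0.00448), Tipin (-0.27, adjusted p = 0.0114) and Rnf8 (-0.515, adjusted p = 0.0172). Etaa1 (-0.22, adjusted p = 0.0288) and Timeless (-0.20, adjusted p = 0.0364) completed the 7. The higher gene was H2afx (0.27, adjusted p = 0.00601). Of the 19 genes 11 did not pass, among them Atrip (0.11, adjusted p = 0.793) and Hus1 (0.07, adjusted p = 0.521). Atrip was scarce, with 40 to 75 counts in a library. Rad17 (0.0002, adjusted p = 0.999) and Rad1 (-0.03, adjusted p = 0.848) did not pass either.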

How the data were processed

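RNA-seq of NOR-10 fibroblasts (3 control and 3 D-gal libraries) was analysed from the table that the authors deposited. It gives read counts per gene and library, deposited without normalization, and FPKM values, which the authors computed and which served here only as an alternative. Per the submitters' processing notes, reads were aligned with HISAT2 2.0.4, after quality checks and trimming by the authors. The counting tool, the use of strand, the genome build and the annotation are not given in the sources used here. Positions of 27776 of the 34344 identifiers found in GENCODE M21 (GRCm38) were the same in both, as were those of 42 of the 47 repair genes. The labels name an RNA-seq kit, and the methods a kit for small RNA. Groups came from the labels, dose and time from the methods.

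edgeR 4.0.16, run in R 4.3.3, served to test the counts. Library sizes were scaled by TMM, low genes were removed by filterByExpr, and p-values of the quasi-likelihood test (no covariate) were adjusted by Benjamini and Hochberg's method over all 13407 genes tested. The biological coefficient of variation was 9.47%. A normalised count is the count set to the mean TMM-scaled library size. The functions were tested on simulated data. No library was a duplicate, since the chi-square of replicate pairs was 6.00 to 9.42 times its degrees of freedom. The repair genes and all lists, written from general knowledge, were chosen with earlier results of these data known. Per-library values were given, by rule, for the 3 smallest p-values in subpathways of 7 or more genes, the 2 smallest in smaller ones, every higher gene, Mki67 and Cdkn1a, and for the wider list the 2 smallest p-values of each subpathway were named. In that list 94 of 95 symbols were found, and Neil2 had too few counts to be tested. Ratios of paired genes used a pseudocount of 0.5 and a two-sided exact permutation test of 3 against 3 libraries.

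Alternatives were DESeq2 1.42.0, RLE size factors, no filter on low counts, a minimum of 10 counts per library, the replicate block, each library left out, limma 3.58.1 on log2(FPKM + 1), an adjusted p-value under 0.01, thinned counts, and offsets for GC content and gene length. Shared words are the percent of a gene's words of 31 bases (1 in 8 sampled) found in other genes.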

Additional observations from a re-analysis of the deposited data

How the results depend on the processing

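With each library left out in turn, the 14 lower repair genes became 9 to 13, the 7 of homologous recombination 3 to 6, the 2 of damage signalling 1 to 2, the 4 outside the S and G2 phase set 2 to 4, and the 26 of the wider list 17 to 20, while 0 to 1 genes (Xrcc3) were differentially expressed. The median of the 47 genes then ranged from -0.16 to -0.091, that of nucleotide excision repair from -0.035 to 0.078, that of the 31 genes from -0.035 to 0.0031, and that of the wider list from -0.086 to -0.044. At an adjusted p-value under 0.01 these lower counts were 8, 3, 1, 2 and 11, and 6 for the S and G2 phase set. The 24 genes without shared sequence, added after seeing the data, held 7 lower genes. Replicate numbers did not pair the libraries (correlations of same-numbered deviations -0.01, -0.0027 and 0.03), and with the replicate block 4 recombination genes were lower. Limma on log2(FPKM + 1) gave 1 lower signalling gene and medians of -0.047 (all 47), -0.23 (recombination), -0.23 (S and G2 phase set), 0.023 (the other 31) and -0.011 (wider list). Counts thinned to the smallest total gave 1 differentially expressed gene, a median of -0.090 for all 47 and 0.078 for nucleotide excision repair. GC content and gene length offsets gave medians of -0.12 (all 47) and -0.070 (wider list), and with the replicate block added -0.12 and -0.071. Without a filter on low counts the wider median was -0.069. In the 150 bases nearest the start, 4 promoters held the E2F core, 0 the CHR element and 15 the CCAAT box.

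Genes whose sign changed had not passed the test. Leaving out libraries, log2 fold changes ranged from -0.029 to 0.12 for Fance, -0.0071 to 0.089 for Msh3, -0.040 to 0.11 for Pms2, -0.11 to 0.074 for Apex1, -0.16 to 0.0038 for Ercc1, -0.018 to 0.26 for Ercc2, -0.063 to 0.077 for Ddb2, -0.016 to 0.081 for Xrcc6, -0.054 to 0.038 for Chek2 and -0.032 to 0.025 for Rad50. Apex1 was 0.026 by limma, 0.0079 with the offsets and 0.014 with the replicate block and offsets, Ddb2 0.016 by limma and 0.089 in thinned counts, and by limma Chek2 was 0.020 and Rad50 0.023. The causes were not tested. With 3 libraries a group and totals from 13759108 counts, small changes of scarce genes such as Ddb2 were not detectable.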
